A study of Mus musculus with 8 samples.

Results

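The genes described here encode the parts of elastic fibres and were followed across 8 arrays of mouse mesonephric tubules. They are elastin (Eln), the fibrillins (Fbn1 and Fbn2), the microfibril-associated proteins (Mfap2, Mfap4 and Mfap5), the fibulins that bring elastin onto microfibrils (Fbln5 and Efemp2) and the lysyl oxidases that cross-link it (Lox and Loxl1). Members were the probes whose RefSeq accession belongs to one of these 10 genes. That matching uses no measured value, but the genes and the lists below were chosen with earlier results of these data known. All 10 genes were found, on 15 of the 55681 probes of the array. Of those 15 probes, 14 were well above background on all 8 arrays. Probe 2 of Fbln5 was above background on only 1 array, a wild-type one, and was not tested.

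Tubules had been microdissected from toluidine blue stained frozen sections of C57/BL6 embryos, and total RNA of each sample was hybridised in 1 colour (Cy3) to 1 Agilent array. Wild-type embryos (5 arrays), described by the design as senescent, were set against embryos labelled p21KO -/- (3 arrays), described as non-senescent. p21, the product of Cdkn1a, is an inhibitor of cyclin-dependent kinases. Neither the embryonic stage nor the kind of p21 allele is in the labels, and nothing there says whether samples came from separate or pooled embryos; p-values here therefore describe the scatter of these samples, which may be technical.

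Elastic fibres form outside the cell. Fibrillins assemble into microfibrils with the microfibril-associated proteins, fibulins carry tropoelastin onto them, and lysyl oxidases join lysines of neighbouring elastin molecules into cross-links. The fibres are made mainly by smooth muscle cells and fibroblasts and are best known for the recoil of arteries, lung and skin. Fibrillin microfibrils also hold latent TGF-β and BMP complexes, and Fbn2 is the fibrillin known mainly from embryonic tissue.

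The share of probes well above background was 82.2% to 89.2% per array, no probe was saturated, and pairs of arrays correlated between 0.865 and 0.952. The arrays lay on 3 slides, each holding both groups; slide 1 held wild-type replicates 1, 2 and 3 and p21-null replicate 1. The 2 probes of Cdkn1a did not separate the groups: the wild-type arrays ran from 0.44 to 2.52 on probe 1 and the p21-null arrays from 0.96 to 2.11 (limma, log2 difference −0.19, adjusted p = 0.953), and probe 2 differed by −0.24. Where these probes lie with respect to the deletion is not known here, so the group is called labelled p21-null, and every direction rests on that label. All 17 markers of mesonephric duct and tubule were measured, and 14 were above background on all 8 arrays. The mean of the 16 with a value on every array spread widely within wild type, from −2.36 in replicate 2 to 0.62 in replicate 1, against −1.82 to −1.12 in the labelled p21-null arrays.

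Of the elastic fibre genes, 9 of 10 averaged lower in the labelled p21-null arrays than in wild type, and none passed the adjusted threshold. All levels are log2 signals, with the array's own 75th percentile set to 0, and differences are labelled p21-null minus wild type. Mfap2, Loxl1, Fbn2 and Mfap4 differed by −1.19, −1.32, −1.09 and −1.001, which is 2.29-fold, 2.50-fold, 2.14-fold and 2.002-fold lower. Eln, Fbn1, Mfap5, Fbln5 and Efemp2 differed by −0.61, −0.47, −1.12, −0.29 and −0.19, and Lox by 1.17 in the other direction.

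Across the array, limma with Benjamini-Hochberg adjustment over 33619 genes and unnamed features put 0 (0%) past an adjusted p of 0.05, against 3400 (10.1%) at an unadjusted p under 0.05. No member passed: the adjusted p was 0.361 for Mfap2, 0.388 for Loxl1, 0.419 for Fbn2 and 0.461 for Mfap4, and 0.725 or more for the others. At an unadjusted p under 0.05 and lower in the labelled p21-null arrays there were 4 of 10 members, against 3.91% of all genes. Of the members 9 had a negative difference, where 52.3% of all genes had one, and their median difference was −0.80 against −0.03 over all genes. Every labelled p21-null array lay below every wild-type array for 2 members, Mfap2 and Loxl1, against 2.44% of all genes. The reverse order held for no member and for 4.44% of all genes. The count of 4 rested on single arrays: it was 0 without labelled p21-null replicate 1, 1 without replicate 3, and 2 without labelled p21-null replicate 2, wild-type replicate 2 or wild-type replicate 5. The members' differences without those arrays stayed negative for these 4 genes, and with 1 array left out the unadjusted p reached 0.0545 for Mfap2, 0.0713 for Loxl1, 0.0793 for Fbn2 and 0.109 for Mfap4. With slide as a fixed block the count was 3, since Mfap4 had an unadjusted p of 0.0641.

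**Figure D1:**
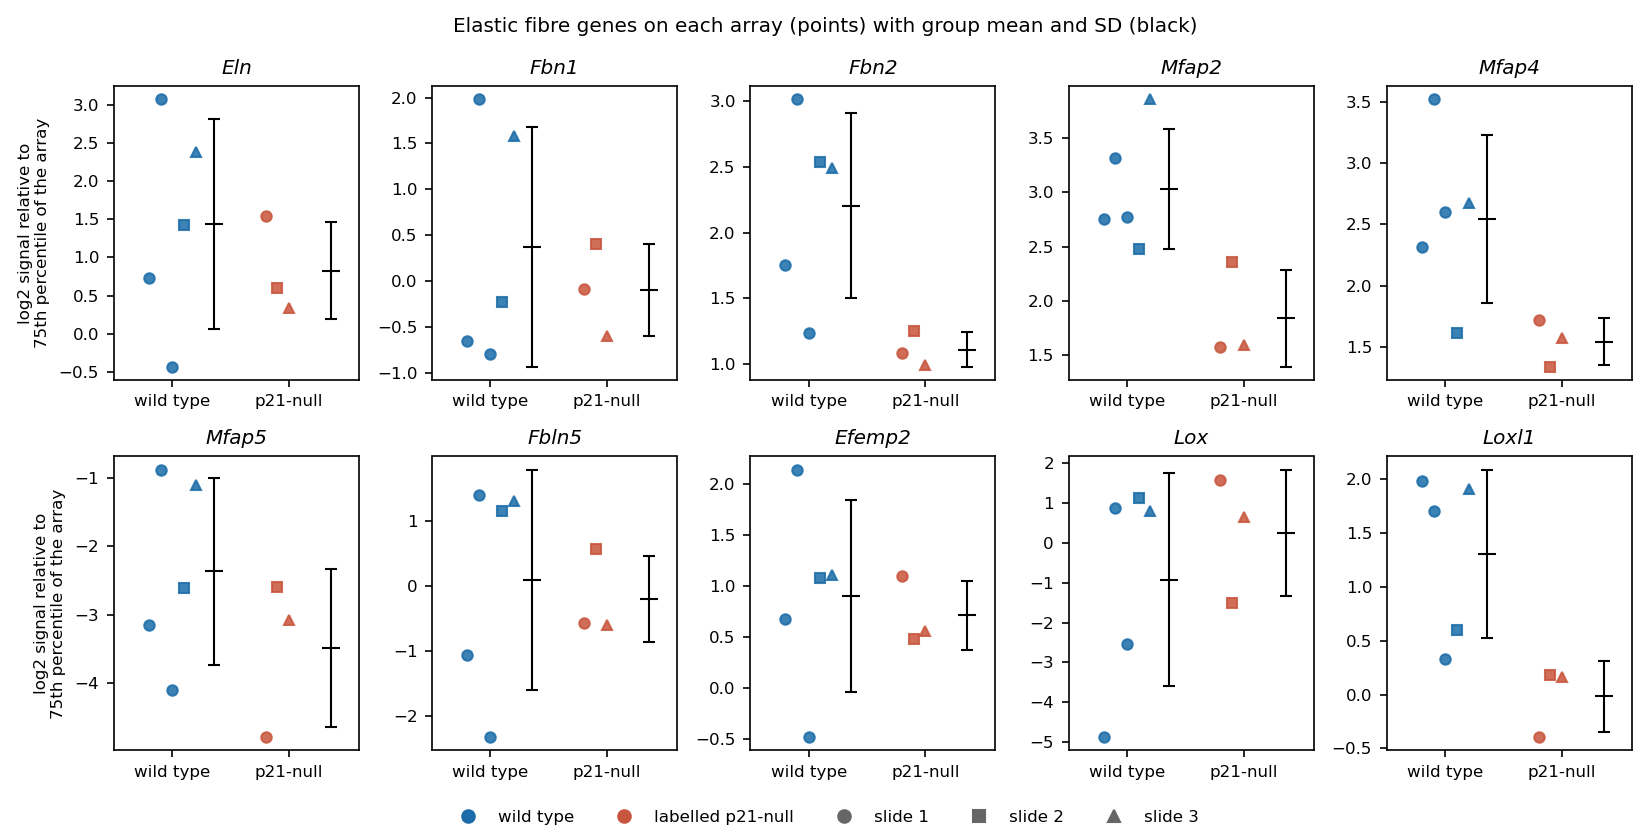
Log2 signal of each elastic fibre gene, with the array's 75th percentile at 0 (vertical axis, a separate scale for each gene) on the 5 wild-type and 3 labelled p21-null arrays (points, shaped by slide), with the group mean and SD in black; each gene is shown by its probe of highest mean. For Mfap2 and Loxl1 the 3 labelled p21-null arrays lie below all 5 wild-type arrays, while for Lox the wild-type arrays alone run from −4.87 to 1.12.

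Mfap2 encodes MAGP1, a small glycoprotein that coats fibrillin microfibrils. Its probe 1 read 2.76, 3.32, 2.77, 2.47 and 3.86 on the wild-type arrays, in the order of replicates 1 to 5, and 1.58, 2.36 and 1.59 on the labelled p21-null arrays, in the order of replicates 1 to 3; this order is kept for all genes. The groups do not overlap, but labelled p21-null replicate 2 and wild-type replicate 4, which shared slide 2, were close to each other. Wild type averaged 3.03 ± 0.55 (SD, n = 5) and labelled p21-null 1.84 ± 0.45 (SD, n = 3), and the difference had a standard error of 0.39 and a 95% interval from −2.08 to −0.31. Its two-sided exact permutation p was 0.0179, the smallest that the 56 splits of the arrays allow. Probe 2 of Mfap2 gave almost the same difference, −1.19, again without overlap, with 0.09 to 2.14 in wild type and −0.40 to −0.04 in the labelled p21-null arrays (exact permutation p = 0.0536). Within slides 1, 2 and 3 the difference on probe 1 was −1.37, −0.12 and −2.27.

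Fbn2, the embryonic fibrillin, stood at 1.75, 3.01, 1.24, 2.54 and 2.49 in wild type and at 1.09, 1.25 and 0.997 in the labelled p21-null arrays. Only wild-type replicate 3, at 1.24, reached the range of the labelled p21-null arrays, which were close together (SD 0.13). Wild type averaged 2.21 ± 0.70 (SD, n = 5) and labelled p21-null 1.11 ± 0.13 (SD, n = 3), with a standard error of 0.42 for the difference (exact permutation p = 0.0536). Its probe 2 differed by −1.10 and also overlapped, with an unadjusted p of 0.0643 in the fit over all probes. Fbn2 was lower within each slide, by −0.92, −1.29 and −1.49.

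Mfap4, a fibrinogen-domain protein that binds microfibrils and tropoelastin, stood at 2.31, 3.52, 2.60, 1.62 and 2.67 in wild type and at 1.72, 1.34 and 1.57 in the labelled p21-null arrays. Wild-type replicate 4 lay among the labelled p21-null arrays and the other 4 wild-type arrays lay above them. Wild type averaged 2.54 ± 0.69 (SD, n = 5) and labelled p21-null 1.54 ± 0.19 (SD, n = 3), with a standard error of 0.41 (exact permutation p = 0.0893), and within slides the difference was −1.09, −0.28 and −1.10. 

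Fbn1, the main fibrillin of adult tissue, and Mfap5, which encodes MAGP2, did not separate the groups. Fbn1 stood at −0.66, 1.98, −0.80, −0.23 and 1.58 in wild type and at −0.09, 0.40 and −0.60 in the labelled p21-null arrays, so that wild type held both the highest and the lowest arrays. Its difference of −0.47 had a 95% interval from −2.06 to 1.12. Mfap5 stood at −3.15, −0.88, −4.10, −2.61 and −1.10 in wild type and at −4.79, −2.59 and −3.08 in the labelled p21-null arrays, with a 95% interval from −2.96 to 0.72. Wild-type replicates 2 and 5 were the highest arrays for both genes. A direct test of Fbn2 against Fbn1 was not made, and their intervals overlap.

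Promoter windows were available for 4 of the members, from RefSeq (GRCm38.p6; 250 bases before to 50 after each annotated start, 8 windows in all). Those of Mfap2, whose groups did not overlap, are printed beside those of Fbn1 and Fbln5, whose groups did; capitals mark every match, on either strand, to the motifs searched, which were the TATA box TATAAA, the GC box GGGCGG, the SMAD element CAGACA, the TEAD motif GGAATG, the AP-1 site TGACTCA and the CArG box of SRF.
Mfap2, chr4:141010174-141010473, plus strand: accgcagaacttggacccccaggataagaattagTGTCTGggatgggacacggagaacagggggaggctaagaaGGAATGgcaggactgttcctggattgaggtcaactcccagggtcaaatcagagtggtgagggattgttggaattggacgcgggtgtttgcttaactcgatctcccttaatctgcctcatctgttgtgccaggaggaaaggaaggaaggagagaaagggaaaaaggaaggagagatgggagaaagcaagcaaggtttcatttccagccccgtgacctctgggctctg
Mfap2, chr4:141010431-141010730, plus strand: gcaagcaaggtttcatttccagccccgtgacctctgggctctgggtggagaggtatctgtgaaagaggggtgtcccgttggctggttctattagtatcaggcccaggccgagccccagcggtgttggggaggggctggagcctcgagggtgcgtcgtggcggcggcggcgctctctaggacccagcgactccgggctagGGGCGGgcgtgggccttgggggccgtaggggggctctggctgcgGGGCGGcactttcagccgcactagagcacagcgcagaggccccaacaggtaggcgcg
Fbn1, chr2:125506389-125506688, minus strand: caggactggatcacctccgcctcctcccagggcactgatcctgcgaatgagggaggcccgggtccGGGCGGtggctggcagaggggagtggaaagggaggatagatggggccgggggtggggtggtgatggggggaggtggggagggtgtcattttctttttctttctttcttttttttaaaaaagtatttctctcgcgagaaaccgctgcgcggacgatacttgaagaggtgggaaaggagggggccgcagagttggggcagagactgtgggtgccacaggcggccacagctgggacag
Fbln5, chr12:101819070-101819369, minus strand: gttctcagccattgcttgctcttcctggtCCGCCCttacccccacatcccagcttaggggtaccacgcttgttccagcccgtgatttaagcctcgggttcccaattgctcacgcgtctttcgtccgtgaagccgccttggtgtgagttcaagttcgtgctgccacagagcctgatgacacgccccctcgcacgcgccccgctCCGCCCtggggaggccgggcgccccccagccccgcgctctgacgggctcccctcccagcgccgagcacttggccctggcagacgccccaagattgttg

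The upstream window of Mfap2 held 1 SMAD element and 1 TEAD motif and no GC box, while its downstream window, which overlaps it, held 2 GC boxes. Fbn1 held 1 GC box and the printed window of Fbln5 held 2, while the other window of Fbln5 held 1 SMAD element. All 4 genes, Efemp2 included, had a GC box in at least 1 window (6 of 8 windows, against 35.7% of 32851 windows of the same length). Member windows with a GC box held 60.33% to 78.33% G and C, and those without held 48.67% and 52%. The median of all windows was 52.67%, and the part of base composition was not tested. No window held a TATA box, an AP-1 site or a CArG box, which were found in 13.6%, 5.202% and 1.63% of all windows. GC boxes of Efemp2 overlap one another, and 2 of its windows overlap. SMAD elements stood in 2 of 8 windows, against 21.04% of all windows, and the TEAD motif in 1, against 14.7%. These are matches of letters and do not show that a factor binds.

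Elastin itself varied more within wild type than between the groups. Eln stood at 0.73, 3.07, −0.43, 1.42 and 2.38 in wild type and at 1.55, 0.59 and 0.34 in the labelled p21-null arrays. The labelled p21-null arrays lay inside the wild-type range, which covered 11.3-fold. Wild type averaged 1.43 ± 1.37 (SD, n = 5) and labelled p21-null 0.83 ± 0.64 (SD, n = 3), and the difference of −0.61 had a standard error of 0.74 and a 95% interval from −2.29 to 1.07 (exact permutation p = 0.482). Within slides 1, 2 and 3 it was 0.42, −0.83 and −2.04, so its sign differed between slides.

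The fibulins gave no separation either. Fbln5, whose product binds both elastin and lysyl oxidase-like 1, stood at −1.07, 1.41, −2.32, 1.16 and 1.31 in wild type and at −0.56, 0.58 and −0.60 in the labelled p21-null arrays. The wild-type arrays split, with replicates 2, 4 and 5 above 1 and replicates 1 and 3 below every labelled p21-null array. Efemp2, which encodes fibulin-4 and is needed for lysyl oxidase to reach elastin, stood at 0.68, 2.14, −0.48, 1.08 and 1.11 in wild type and at 1.10, 0.48 and 0.56 in the labelled p21-null arrays. Their 95% intervals were −2.30 to 1.72 for Fbln5 and −1.39 to 1.01 for Efemp2. The sign of the Fbln5 difference turned without wild-type replicate 2 (0.04) or 5 (0.01), and that of Efemp2 without wild-type replicate 2 (0.12).

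Of the lysyl oxidases, the groups did not overlap for Loxl1 and overlapped for Lox. Loxl1, the family member tied to elastin upkeep, stood at 1.98, 1.71, 0.32, 0.60 and 1.91 in wild type and at −0.39, 0.18 and 0.17 in the labelled p21-null arrays on probe 1. Each labelled p21-null array lay below each wild-type array, the nearest pair being 0.32 and 0.18. Wild type averaged 1.30 ± 0.78 (SD, n = 5) and labelled p21-null −0.02 ± 0.33 (SD, n = 3), with a standard error of 0.46 and a 95% interval from −2.36 to −0.28 (exact permutation p = 0.0357). Probe 2 of Loxl1 gave a larger difference of −2.06, or 4.17-fold, with 0.96, 0.55, −1.11, 0.18 and 1.49 in wild type and −1.43, −1.40 and −2.10 in the labelled p21-null arrays. In the fit over all probes it had an unadjusted p of 0.0049 and an adjusted p of 0.321. Within slides 1, 2 and 3 the difference on probe 1 was −1.73, −0.42 and −1.74.

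Lox, the founding lysyl oxidase, stood at −4.87, 0.86, −2.54, 1.12 and 0.79 in wild type and at 1.58, −1.50 and 0.65 in the labelled p21-null arrays. Wild-type replicates 1 and 3 were far below the other 3, over a 63.6-fold range, and 99.2% of all genes had a smaller SD over the wild-type arrays. Probe 2 showed the same split, at −2.51, 0.32, −2.79, 0.62 and 0.85 in wild type, but a group difference of 0.37, or 1.29-fold, where probe 1 gave 1.17, or 2.25-fold. The difference on probe 1 had a 95% interval from −2.06 to 4.40, and without labelled p21-null replicate 1 it was −0.25. All wild-type arrays with low Lox lay on slide 1, which also held replicate 2, with 0.86, and labelled p21-null replicate 1, with 1.58. Whether Lox and Loxl1 differ in their response was not tested.

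**Figure D2:**
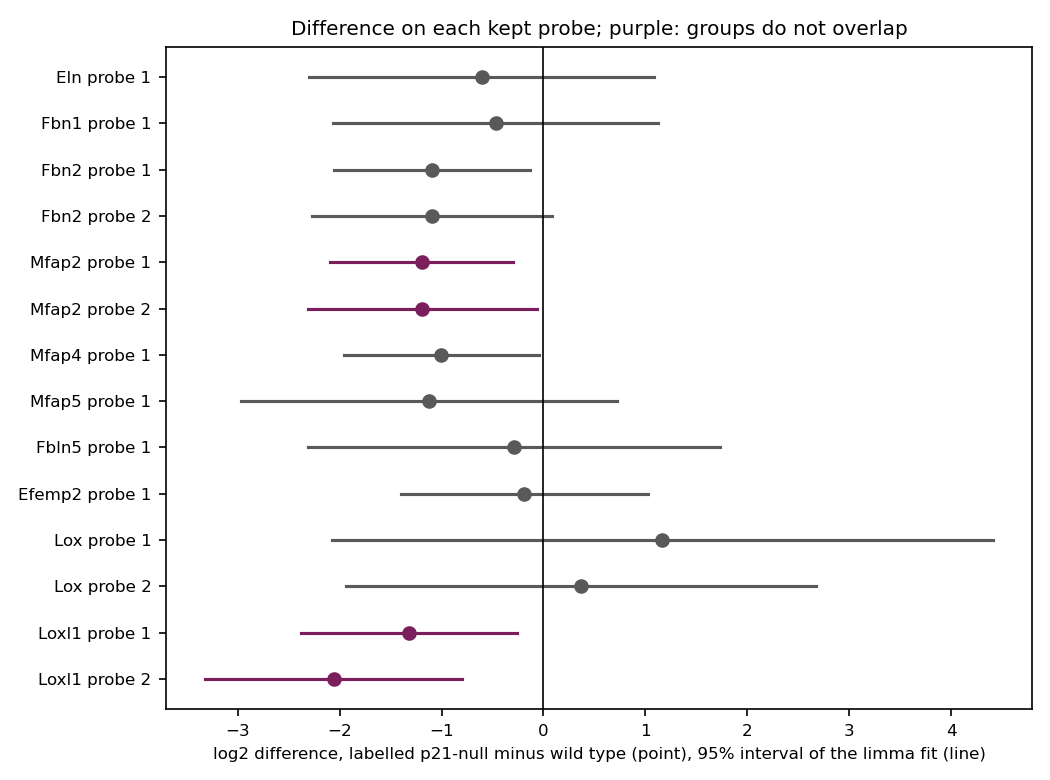
Difference in log2 signal, labelled p21-null minus wild type (horizontal axis), for the 14 tested probes of the elastic fibre genes, with the 95% interval of the limma fit over all probes. Purple marks the probes of Mfap2 and Loxl1 on which the groups do not overlap; the intervals of Eln, Fbn1, Mfap5, Fbln5, Efemp2, both probes of Lox and probe 2 of Fbn2 include 0.

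Members also differed in their spread over the wild-type arrays. The SD was 1.37 for Eln, 1.31 for Fbn1, 1.37 for Mfap5, 1.70 for Fbln5 and 2.67 for Lox, against a median of 0.61 over all genes. It was 0.55 for Mfap2, 0.70 for Fbn2, 0.69 for Mfap4 and 0.78 for Loxl1. Efemp2 lay between, at 0.94. An unadjusted p weighs each difference against the spread within both groups, as limma estimates it. The differences of Mfap5 (−1.12) and Fbn2 (−1.09), alike in size, thus had an unadjusted limma p of 0.201 and 0.0281. Over the labelled p21-null arrays the SD was 1.16 for Mfap5 and 0.13 for Fbn2.

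Markers of mesenchyme were measured on the same arrays, since elastic fibre genes are made by such cells. The mean of 18 mesenchyme and fibroblast markers, none of them a member, came to −0.10, 1.18, −0.37, 0.83 and 1.53 in wild type and to 0.31, 0.01 and −0.14 in the labelled p21-null arrays. Of these markers, 16 were above background on all arrays. The others, named after their values were seen, were Meox1, above it on 4 wild-type arrays, and Meox2, on 3. Their SDs over the wild-type arrays were 3.70 and 3.67, and their part in the spread of the mean was not tested. Wild-type replicates 2, 4 and 5 were high and all other arrays low, so this mean separated the wild-type arrays more than the groups. In bulk tissue, fewer cells of a type and less RNA per cell cannot be told apart. Of these 18 markers 14 had a negative difference, with a median of −0.41. The 4 with a positive difference, named after their values were seen, were Col1a2 at 0.36, Col1a1 at 0.32, Col5a1 at 0.20 and Lum at 0.20. At an unadjusted p under 0.05, 3 were lower, Thy1 at −1.29, Twist2 at −1.59 and Nr2f1 at −1.80, where 3.91% of all genes were. That count of 3 was 0 when labelled p21-null replicate 3 was left out, and 1 when wild-type replicate 3 or labelled p21-null replicate 1 or 2 was. Of 12 measured smooth muscle and pericyte markers 9 were negative, and the mean of the 11 with values on all arrays ran from −1.59 to 0.53 in wild type and from −1.73 to −1.36 in the labelled p21-null arrays. The 3 with a positive difference, named after their values were seen, were Synpo2 at 1.16, Mylk at 0.46 (above background on 4 wild-type arrays) and Actg2 at 0.17. Cspg4 and Rgs5, genes of pericytes, differed by −1.91 and −2.29. They were the 2 of this list lower at an unadjusted p under 0.05, where 3.91% of all genes were. Of these 2, 1 was left without any 1 of the labelled p21-null arrays. No marker passed the adjusted threshold.

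Of the members, Eln followed the mesenchyme mean most closely by Pearson's r and, level with Fbln5, by Spearman's rho. Over the 8 arrays, Pearson's r was 0.915 (exact permutation p = 0.00114, adjusted over 10 members 0.0114) and Spearman's rho 0.929 (exact permutation p = 0.00223, adjusted 0.0112). Without wild-type replicates 2 and 5, the arrays farthest from the median, r for Eln was 0.857. For Fbln5 r was 0.851 (exact permutation p = 0.00737, adjusted 0.0288; rho 0.929, adjusted p = 0.0112 by exact permutation) and for Efemp2 0.772 (exact permutation p = 0.0144, adjusted 0.0288; rho 0.881, adjusted exact permutation p = 0.0241), with 0.80 and 0.787 without those arrays, where the exact permutation p was 0.0569 and 0.0875, against 0.0333 for Eln. Fbn1 (r = 0.849, rho 0.857, adjusted exact permutation p = 0.0288 and 0.0268) rested on those 2 arrays, since r was 0.424 without them. Fbn2 had r = 0.848 and rho 0.714 (adjusted exact permutation p = 0.0288 and 0.115), and r = 0.718 without them. Mfap5 (r = 0.758, rho 0.667), Mfap2 (0.647, 0.405), Lox (0.593, 0.643), Loxl1 (0.527, 0.357) and Mfap4 (0.466, 0.405) had adjusted exact permutation p-values from 0.0546 to 0.389. Without the same arrays r turned negative for Mfap2 (−0.15), Mfap4 (−0.51) and Loxl1 (−0.12). Correlations within a slide or within a group, each of fewer than 6 arrays, were not computed. The share of all genes that follow the mesenchyme mean as closely was not computed either. Nor were correlations with a mesenchyme mean that leaves out Meox1 and Meox2.

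**Figure D3:**
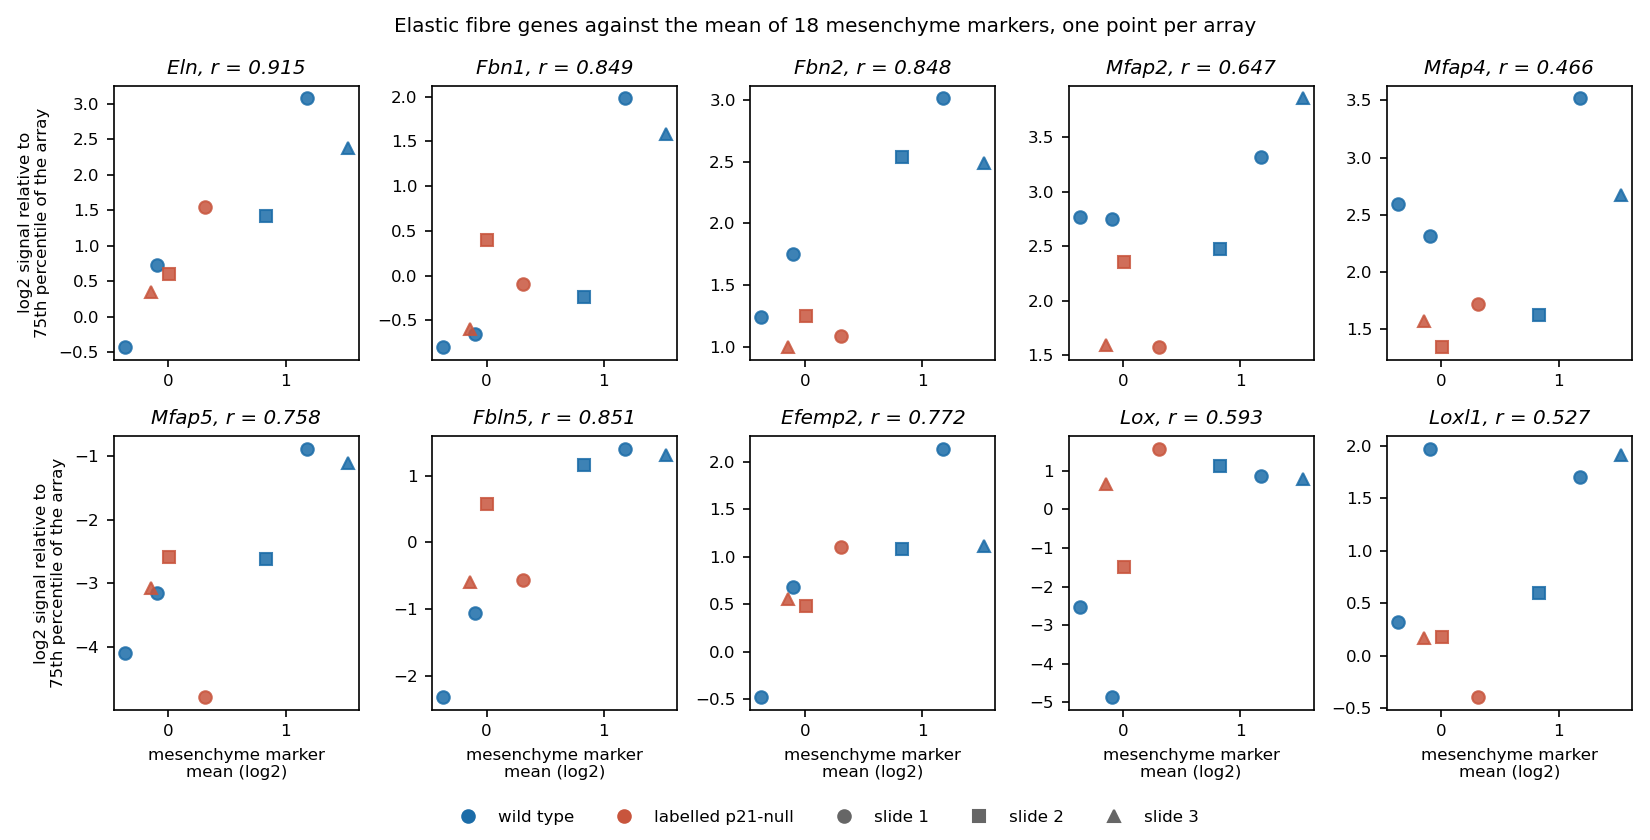
Log2 signal of each elastic fibre gene (vertical axis, a separate scale for each gene) against the mean log2 signal of 18 mesenchyme markers (horizontal axis), 1 point per array, coloured by group and shaped by slide, with Pearson's r over 8 arrays. Points of Eln lie near a line (r = 0.915), and those of Mfap4 scatter most (r = 0.466).

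Genes whose profile over the 8 arrays was most like that of Eln were sought among 15574 other named genes above background on all arrays. The highest Pearson's r were those of Wfs1 (0.986), which encodes the endoplasmic reticulum protein wolframin, Lrrc17 (0.984), Ddr2 (0.963), a receptor for collagen, Adamts12 (0.951), a secreted metalloprotease, and Aebp1 (0.948), whose product binds collagen. Efemp2 ranked 8 of 15574 by likeness to Eln (r = 0.944) and Fbn1 ranked 72 (r = 0.879), while Mfap2 ranked 1820 (r = 0.499). For Fbn1 the highest were Peg3os (0.951), Plod3 (0.950), a lysyl hydroxylase of collagen, Peg3 (0.943), Mcu (0.941), the mitochondrial calcium uniporter, and Glt8d2 (0.934). Peg3os is named as the opposite strand of Peg3, and how far their probes share transcripts was not tested. These genes were picked for their likeness, so no test applies.

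**Figure D4:**
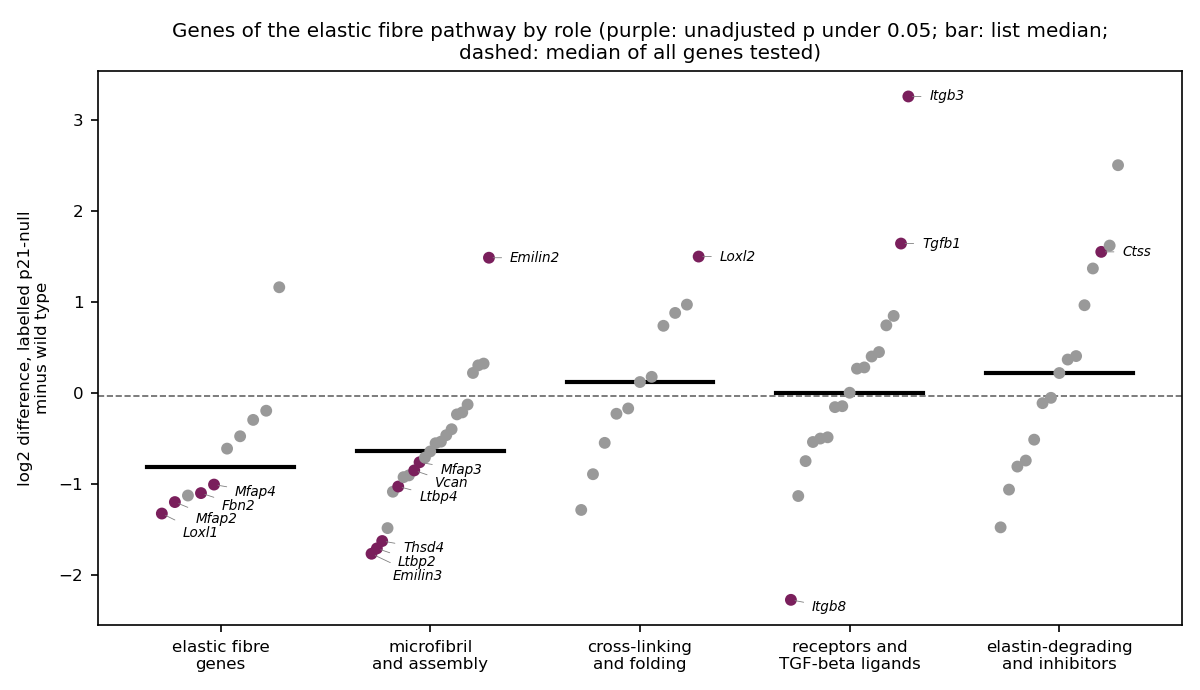
Difference in log2 signal, labelled p21-null minus wild type (vertical axis), of each measured gene in 5 lists of the elastic fibre pathway (horizontal axis), 1 point per gene, with a bar at the list's median and a dashed line at the median of all genes. Purple points, with names, have an unadjusted p under 0.05; none passed the adjusted threshold. The medians are −0.80 for the elastic fibre genes and −0.64 for microfibril and assembly proteins, and lie near 0.13, 0.01 and 0.22 for the other lists.

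Other proteins of microfibrils and of fibre assembly stood lower in the labelled p21-null arrays more often than not. Of 25 such genes 23 were measured: 19 had a negative and 4 a positive difference, with a median of −0.64 against −0.03 over all genes. At an unadjusted p under 0.05, 6 were lower and 1 higher, where 3.91% and 6.20% of all genes were, and none passed the adjusted threshold. Ltbp2, a microfibril-binding relative of the latent TGF-β binding proteins, stood at −1.01, 0.47, −0.76, −1.13 and −0.81 in wild type and at −2.85, −2.36 and −1.84 in the labelled p21-null arrays. Its difference was −1.70, or 3.26-fold (limma adjusted p = 0.288), and the groups do not overlap. Emilin3, one of the elastin microfibril interfacer family, stood at −0.86, −0.41, −1.69, −1.22 and −0.20 in wild type and at −1.73, −2.76 and −3.42 in the labelled p21-null arrays. The difference was −1.76, or 3.39-fold (limma adjusted p = 0.295), and the nearest arrays of the groups, at −1.69 and −1.73, almost met. Ltbp4, needed for elastin to be laid on microfibrils, differed by −1.02 (adjusted p = 0.430 in limma), with 0.95 to 2.34 in wild type and 0.47 to 0.98 in the labelled p21-null arrays. The other 3 at that unadjusted p, named after their values were seen, were Thsd4 at −1.62, the proteoglycan gene Vcan at −0.85 and Mfap3 at −0.76. The count of 6 went to 3 when wild-type replicate 2 was left out, and to 2 when wild-type replicate 5 or labelled p21-null replicate 1 or 3 was.

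Of the 4 genes of that list with a positive difference, Emilin2 was the 1 with an unadjusted p under 0.05. It stood at −0.39, 0.60, −0.12, −0.05 and 1.21 in wild type and at 2.14, 1.16 and 1.92 in the labelled p21-null arrays, a difference of 1.49, or 2.81-fold (limma adjusted p = 0.311). Wild-type replicate 5 lay just above labelled p21-null replicate 2.

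Enzymes that cross-link, activate or fold the fibre proteins showed no common direction. Of 11 measured genes 5 were lower and 6 higher, with a median of 0.13. Loxl2, a lysyl oxidase known for collagen IV, differed by 1.504, or 2.84-fold higher, with −1.37 to 1.45 in wild type and 1.38 to 2.77 in the labelled p21-null arrays (unadjusted p = 0.0431, limma adjusted p = 0.476). Tll1, a tolloid protease, differed by 0.88 and Postn, whose product helps activate lysyl oxidase, by −0.89. Loxl3 was above background on 4 wild-type and 2 labelled p21-null arrays, so no difference is given for it.

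Receptors and TGF-β ligands were also divided, 8 lower and 9 higher of 17, with a median of 0.01. Itgb8, an integrin that releases TGF-β, stood at −3.24 to −0.32 in wild type and −4.90 to −3.36 in the labelled p21-null arrays, a difference of −2.27, or 4.82-fold (limma adjusted p = 0.345). Itgb3, an integrin subunit found also on platelets, stood at −1.82 to 2.19 in wild type and 1.58 to 5.195 in the labelled p21-null arrays, a difference of 3.26. Tgfb1 differed by 1.65 (limma adjusted p = 0.461), with 4 wild-type arrays from −3.01 to −2.66 and wild-type replicate 5 at −0.52. Its labelled p21-null arrays ran from −2.01 to 0.11. Tgfb3 differed by −1.13. Among 15 proteases and inhibitors that degrade elastin or protect it, 7 were lower and 8 higher. Ctss, cathepsin S of macrophages, differed by 1.56, or 2.94-fold higher (limma adjusted p = 0.383). Timp2 differed by −0.80, and Mmp7 was above background on 4 wild-type arrays and 1 labelled p21-null array, so no difference is given for it.

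Markers of other cells were measured on the same arrays. The mean of 11 erythroid markers ran from 1.09 to 3.32 in wild type and from 3.47 to 4.27 in the labelled p21-null arrays, with 10 of 11 measured genes higher, and that of 12 liver markers from −0.34 to 3.72 and from 3.32 to 4.63, with 12 of 12 higher. Macrophage markers (11) ran from −0.92 to 0.42 and from 0.27 to 0.83, with 9 of 11 higher. Neural markers (15) ran from −1.93 to −0.57 in wild type and from −2.87 to −1.98 in the labelled p21-null arrays, with 15 of 15 lower. Endothelial markers (14) ran from −1.73 to 0.21 and from −1.83 to −0.24, with 6 lower and 8 higher. Mesothelial markers (7) ran from −3.97 to −2.23 and from −4.77 to −2.88, with 6 lower and 1 higher, and gonadal markers (10) from −1.72 to −0.82 and from −2.19 to −1.49, with 5 lower and 5 higher. By the filter, every measured gene was well above background on at least 3 of 8 arrays. Lmod1 of smooth muscle and Dazl of the gonad, above it on 1 array, were not kept. The part of these cells in the differences of the elastic fibre genes was not tested.

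**Figure D5:**
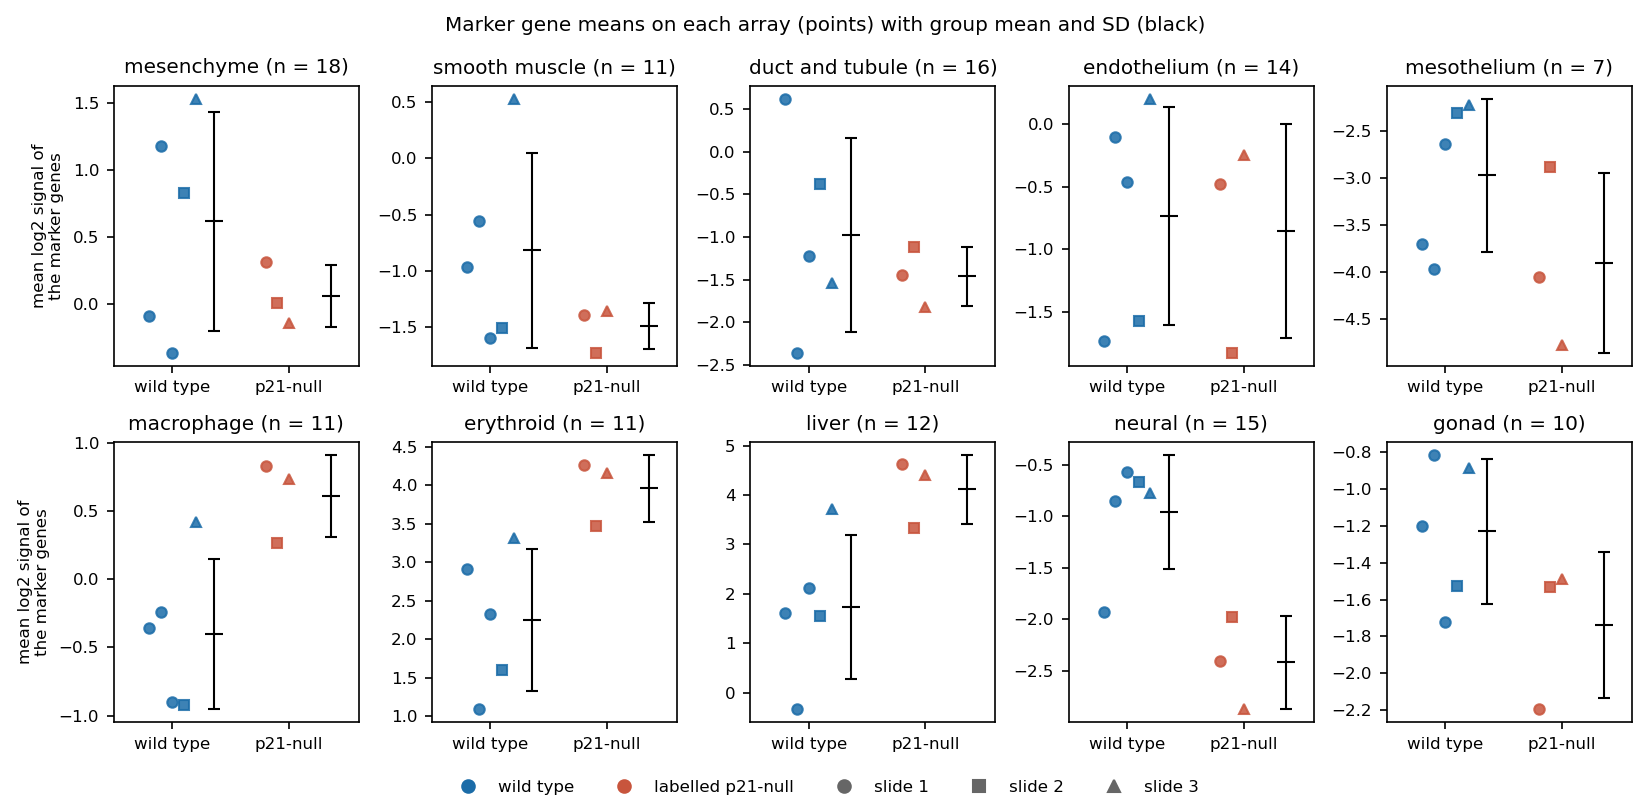
Mean log2 signal of the marker genes of 10 cell types (vertical axis, a separate scale for each list; n, genes in the mean) on the 5 wild-type and 3 labelled p21-null arrays (points, shaped by slide), with the group mean and SD in black. Erythroid means of the labelled p21-null arrays lie above, and neural means below, those of all wild-type arrays, while the mesenchyme means of the labelled p21-null arrays lie inside the wild-type range.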

How the data were processed

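Per the file headers, each deposited array file was written by Agilent Feature Extraction (10.7.3.1 where given); the processed intensities deposited there are the scanner software's output on a linear scale, not scaled between arrays. The authors also deposited a table of log2 values, used as an alternative. The submitters' processing notes name limma. The table's column medians were all near 9.26, its direction and log2 scale follow from values that correlated at 0.974 or more with the log2 scanner intensities of the same array. Its background correction is unstated.

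The log2 processed intensity was expressed relative to the array's 75th percentile (control spots left out), without outlier spots and with repeated spots of a probe averaged. Accessions without versions gave a RefSeq symbol (GRCm38.p6) to 26056 of 55681 probes. Probes well above background on at least 3 of 8 arrays were kept (50046), and the probe of highest mean stood for each gene (33619 genes and unnamed features). The 5 and 3 arrays were fitted in limma 3.58.1 (R 4.3.3; lmFit, eBayes, no covariate), with p-values adjusted by Benjamini-Hochberg over all of them, and by two-sided exact permutation over 56 splits for single members. The fit was run on simulated data with independent normal scatter and no slide effect, to check that it returned shifts that had been added. That check does not bear on effects of slide in these arrays. Precision is limited by the number of arrays.

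The members and lists were chosen with earlier results of these data known. Genes named were the members, the 4 of smallest p in each pathway list, up to 3 in each marker list (Myh11, with values on some arrays only, is left out) and the 5 most like Eln and Fbn1. Some of these genes are left out of the text, and those said to be named after their values were seen were added to it. A planned comparison of the members' proteins was not made. Slides were identified from the array files. Alternatives were other scalings, background correction (normexp, offset 50, on median intensities), filters, probe rules, moderation, array weights, slide or replicate number as a block, and leaving out each array.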

Additional observations from a re-analysis of the deposited data

Results flagged for a closer look

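Wild-type arrays were checked for 1 value far from the other 4 in 71 sets of values (member probes, named genes and marker means). By Dixon's ratio (above 0.71) 3 stood out, where chance flags about 1 set in 20. In 71 sets, 3 are no more than that rate gives. Ltbp2 was 0.47 in wild-type replicate 2, against −1.13 to −0.76 in the other wild-type arrays. Tgfb1 was −0.52 in wild-type replicate 5, against −3.01 to −2.66. The neural marker mean was −1.93 in wild-type replicate 1, against −0.85 to −0.57. No probe of an elastic fibre member stood out in this way.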

How the results depend on the processing

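Under 20 alternatives the differences of Eln, Fbn1, Fbn2, Mfap2, Mfap4, Mfap5 and Loxl1 were negative in 20 of 20, and no member passed the adjusted threshold (lowest adjusted p 0.0928, for Mfap2). Mfap2 and Loxl1 each had an unadjusted p under 0.05 in 18 of 20, and Fbn2 and Mfap4 in 13. The sign turned for Fbln5 with the replicate block (0.47), without wild-type replicate 2 (0.0364) or 5 (0.0125), for Efemp2 without wild-type replicate 2 (0.12) and for Lox without labelled p21-null replicate 1 (−0.25); leaving out 1 array gave −0.90 to 0.0364 for Fbln5, −0.54 to 0.12 for Efemp2 and −0.25 to 2.04 for Lox. Without the 2 arrays farthest from the median, the correlation with the mesenchyme mean turned negative for Mfap2 (−0.15), Mfap4 (−0.51) and Loxl1 (−0.12). The cause was not tested.

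Members lower at an unadjusted p under 0.05 were 4, but 3 with slide as a fixed block and 2 with the replicate block. Leaving out 1 array gave 0 to 4. Replicate numbers do not pair the arrays: deviations of same-numbered arrays correlated at 0.06, −0.08 and −0.07, and not every array correlated best with its own number. Each labelled p21-null array correlated best with a wild-type array of its own slide. These were replicate 1 with wild-type replicate 3 (0.08), 2 with wild-type 4 (0.14) and 3 with wild-type 5 (0.23). The main fit and the permutations leave slide out. All genes past the adjusted threshold were 0, but 3 with normexp background correction, 8 with array weights (weight 3.19 for labelled p21-null replicate 3) and 0 to 1 on leaving out 1 array, the 1 being without wild-type replicate 4. All genes at an unadjusted p under 0.05 were 3400, but 5720 with array weights and 1746 to 3807 on leaving out 1 array, the lowest being without labelled p21-null replicate 3.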
